A study of Bos indicus with 6 samples.

Results

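Genes of the connective-tissue matrix were followed in the uterine lining, the endometrium: the collagen genes COL1A1, COL1A2 and COL3A1, the collagen-binding genes SPARC and DCN, and the protease gene MMP2. They were chosen by their Ensembl cattle identifiers, with earlier results of these data known, and are 6 of the 24616 genes in the deposited table. The identifiers are ENSBTAG00000013103 for COL1A1, ENSBTAG00000013472 for COL1A2, ENSBTAG00000021466 for COL3A1, ENSBTAG00000014835 for SPARC, ENSBTAG00000003505 for DCN and ENSBTAG00000019267 for MMP2. The symbols came with the identifiers and were not checked here, since the table pairs no identifier with a name and the gene table at hand matched 0 of the 24616. Reads were assigned to 5 of the 6 genes, and COL1A1 was listed at 0 in every library.

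The RNA came from 6 cows of the Nelore breed (Bos indicus), with 3 under each of 2 hormonal regimens. The animals were multiparous and not lactating, their cycles had been synchronised beforehand, and every cow was given a device that releases progesterone, with estradiol benzoate, on day -10. In the regimen named LF-LCL, for a large follicle and a large corpus luteum, cows also received cloprostenol, an analogue of prostaglandin F, at device insertion. In SF-SCL, for a small follicle and a small corpus luteum, they did not. The device was removed, and cloprostenol given in both regimens, 42 to 54 hours before GnRH in LF-LCL and 30 to 36 hours before it in SF-SCL. GnRH followed on day 0, and the endometrium was collected at slaughter on day 7. The regimens were named for the size of the follicle before ovulation and of the corpus luteum, the progesterone-secreting gland formed from it. The comparison asks how the endometrial matrix genes stood under the 2 regimens.

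Fibrillar collagens are the main load-bearing proteins of the endometrial stroma, the connective tissue beneath the epithelium, and are secreted largely by fibroblasts. Type I collagen is built from the chains encoded by COL1A1 and COL1A2, and type III collagen from the COL3A1 chain alone. Decorin (DCN) is a small leucine-rich proteoglycan that binds collagen fibrils and limits their width, and SPARC is a matricellular glycoprotein that binds collagen and takes part in its assembly. MMP2 is a gelatinase, a secreted metalloproteinase that cleaves denatured collagen and basement membrane collagen. The stroma is remodelled through the estrous cycle under estradiol and progesterone.

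The libraries held 2896663 to 7811332 reads assigned to genes. The values are normalised read counts, that is reads divided by 1 size factor per library, and they are not divided by gene length. A value therefore compares 1 gene between cows, and the order of different genes describes reads, not transcripts. The tissue is a mixture of cells, so fewer stromal cells and less RNA per stromal cell cannot be told apart. Markers of stroma, epithelium, vessels and immune cells were not analysed here, because no identifier could be paired with their symbols.

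COL1A1 had no read in any of the 6 libraries. As up to 3 reads are compatible with a count of 0, its normalised read count could have been up to 1.69 in the library with most reads and up to 4.64 in the one with fewest. COL1A2, whose product assembles with that of COL1A1, had 15513 to 58486 reads in the same libraries, so 3 reads would be 0.00513% to 0.0193% of the COL1A2 reads. COL1A1 was 1 of 9148 genes with no read in any library. Why COL1A1 is listed at 0 was not tested. Nothing about COL1A1 expression is read from this, and it entered no comparison.

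The 5 measured genes all had lower fitted values in LF-LCL than in SF-SCL, as did 51.4% of all tested genes, and none of the 5 passed the threshold. Genes were tested with limma on log2(value + 1), and a gene was called at a two-sided adjusted p under 0.05 (Benjamini-Hochberg over all 12535 tested genes). In this comparison 0.965% of tested genes were called, 0.295% as lower in LF-LCL, and 0 of the 5 matrix genes were called. At an unadjusted p under 0.05, 3 of the 5 were lower (COL1A2, COL3A1 and SPARC), against 7.76% of all tested genes. That count stayed at 3 with edgeR under TMM or RLE scaling, DESeq2, limma on values rescaled by TMM, and a pseudocount of 0.1. It fell to 0 with a pseudocount of 5, with no filter on low values and in 4 of the 6 fits that leave out 1 cow. edgeR on the recovered reads called 0 of the 5, where it called 0.223% of all tested genes as lower in LF-LCL with TMM scaling and 0.191% with RLE scaling. DESeq2 called 2 of the 5, COL3A1 and SPARC, where it called 2.2% of all tested genes as lower. Among the 90 genes with a mean at least that of MMP2, DESeq2 called 13.3% as lower. Of those 90, 20% were lower at an unadjusted limma p under 0.05.

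**Figure D1:**
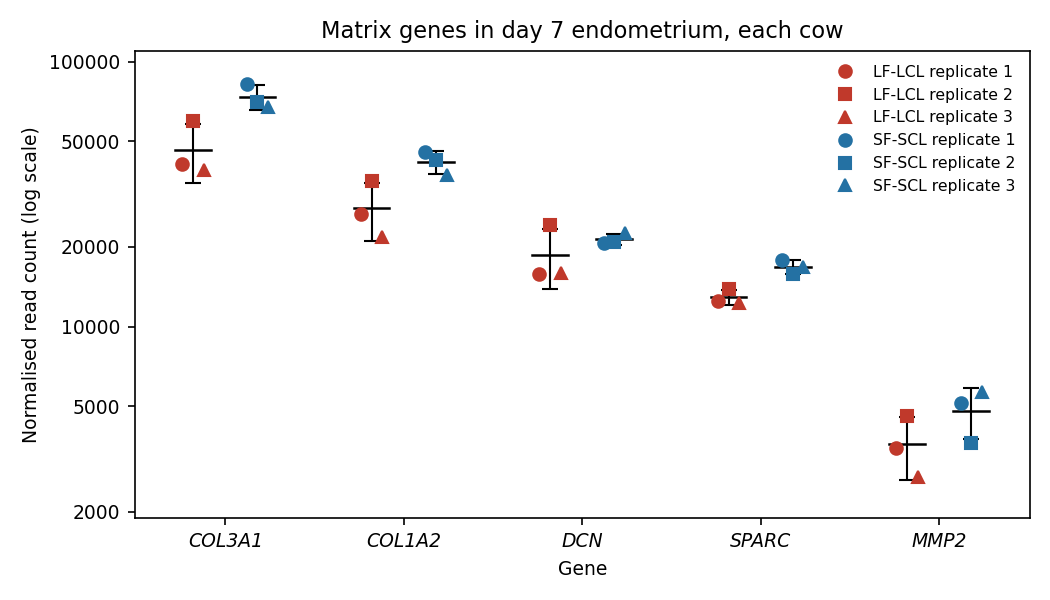
Normalised read count (log axis) of 5 matrix genes in each cow, with LF-LCL in red and SF-SCL in blue, 1 symbol per cow, and black bars for the group mean ± SD (n = 3). The groups do not overlap for COL3A1, COL1A2 and SPARC, and they overlap for DCN and MMP2, where LF-LCL replicate 2 lies among or above the SF-SCL cows. Heights of different genes are not comparable, since values are not divided by gene length.

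COL3A1, the type III collagen gene, had normalised read counts of 40968, 59942 and 38905 in LF-LCL replicates 1 to 3 and of 82612, 70628 and 67380 in SF-SCL replicates 1 to 3. Every SF-SCL cow was above every LF-LCL cow, and the lowest SF-SCL cow exceeded the highest LF-LCL cow, replicate 2, by a factor of 1.12. The mean was 46605 ± 11596 (SD, n = 3) for LF-LCL cows and 73540 ± 8022 (SD, n = 3) for SF-SCL cows. Its log2 fold change of -0.68 ± 0.29 (SE) corresponds to a value 1.60-fold higher in SF-SCL (95% interval 1.01 to 2.55). It was not called (limma, adjusted p = 0.286), but DESeq2 called it (adjusted p = 0.0215). COL3A1 took more reads than any other gene in each SF-SCL library, at 1.50% to 1.89% of the reads, and ranked 2 in each LF-LCL library, at 0.859% to 1.23%.

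COL1A2, the type I collagen alpha-2 chain gene, followed the same order of cows as COL3A1. It stood at 26705, 35433 and 21828 in LF-LCL replicates 1 to 3 and at 45627, 42544 and 37377 in SF-SCL replicates 1 to 3. The groups did not overlap, although SF-SCL replicate 3 exceeded LF-LCL replicate 2 by a factor of only 1.05. Over the 9 pairs of a cow from each group, the SF-SCL cow was higher in 9 and by up to 2.09-fold. The means were 27989 ± 6892 (SD, n = 3) and 41849 ± 4169 (SD, n = 3). This gave a log2 fold change of -0.60 ± 0.26 (SE; limma, adjusted p = 0.284), 1.52-fold higher in SF-SCL (95% interval 1.01 to 2.29).

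Together COL1A2 and COL3A1 took 1.54%, 1.96% and 1.34% of the reads in LF-LCL replicates 1 to 3 and 2.93%, 2.60% and 2.34% in SF-SCL replicates 1 to 3. These shares do not depend on the size factors. Every SF-SCL cow lay above every LF-LCL cow, averaging 2.62% ± 0.297 (SD, n = 3) against 1.61% ± 0.316 (SD, n = 3). Each of the 2 genes already separated the groups, and the shares count the same reads, so they are no further support.

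SPARC, the collagen-binding glycoprotein gene, varied least of the 5 genes between LF-LCL cows. Its normalised read counts were 12547, 13862 and 12285 in LF-LCL replicates 1 to 3 and 17890, 15774 and 16817 in SF-SCL replicates 1 to 3. The groups did not overlap, and the lowest SF-SCL cow, replicate 2, exceeded the highest LF-LCL cow by a factor of 1.14. The coefficient of variation between cows was 6.55% in LF-LCL and 6.29% in SF-SCL, against 24.6% and 9.96% for COL1A2. SPARC had a log2 fold change of -0.38 ± 0.16 (SE), 1.30-fold higher in SF-SCL (95% interval 1.01 to 1.69). It was not called with limma (adjusted p = 0.284) and was called with DESeq2 (adjusted p = 0.0261).

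DCN, the decorin gene, differed between the group means by less than the SD of the LF-LCL cows. It was at 15754, 24214 and 15980 in LF-LCL replicates 1 to 3 and at 20655, 20960 and 22623 in SF-SCL replicates 1 to 3. LF-LCL replicate 2 had the highest value of all 6 cows, while the other LF-LCL cows were the lowest, so the groups overlapped. The SF-SCL cows were close together, with a coefficient of variation of 4.95% compared with 25.8% among LF-LCL cows. For DCN the log2 fold change came to -0.23 ± 0.22 (SE; limma, adjusted p = 0.664), and the 95% interval of the SF-SCL to LF-LCL fold ran from 0.821 to 1.67. Without LF-LCL replicate 2 the log2 fold change was -0.43 (limma, adjusted p = 0.251), and without LF-LCL replicates 1 and 3 in turn it was -0.12 and -0.13 (limma, adjusted p = 0.853 and 0.861).

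MMP2, the gelatinase gene, varied widely within both groups. Its normalised read counts were 3472, 4603 and 2714 in LF-LCL replicates 1 to 3 and 5152, 3626 and 5670 in SF-SCL replicates 1 to 3. SF-SCL replicate 2 lay below LF-LCL replicate 2, the only 1 of the 9 pairs in which the SF-SCL cow was lower. The means were 3596 ± 951 (SD, n = 3) and 4816 ± 1063 (SD, n = 3), for a log2 fold change of -0.43 ± 0.23 (SE; limma, adjusted p = 0.402). The 95% interval of the SF-SCL to LF-LCL fold ran from 0.931 to 1.95. Over the 6 fits that leave out 1 cow, the log2 fold change ran from -0.62 to -0.24. The first was without LF-LCL replicate 2 (limma, adjusted p = 0.253) and the last without LF-LCL replicate 3, the lowest cow (limma, adjusted p = 0.678). MMP2 had the fewest reads of the 5 genes, 1929 to 6175 per library, which gives a counting error of at most 2.28%. Its coefficient of variation between cows was 26.4% in LF-LCL and 22.1% in SF-SCL.

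**Figure D2:**
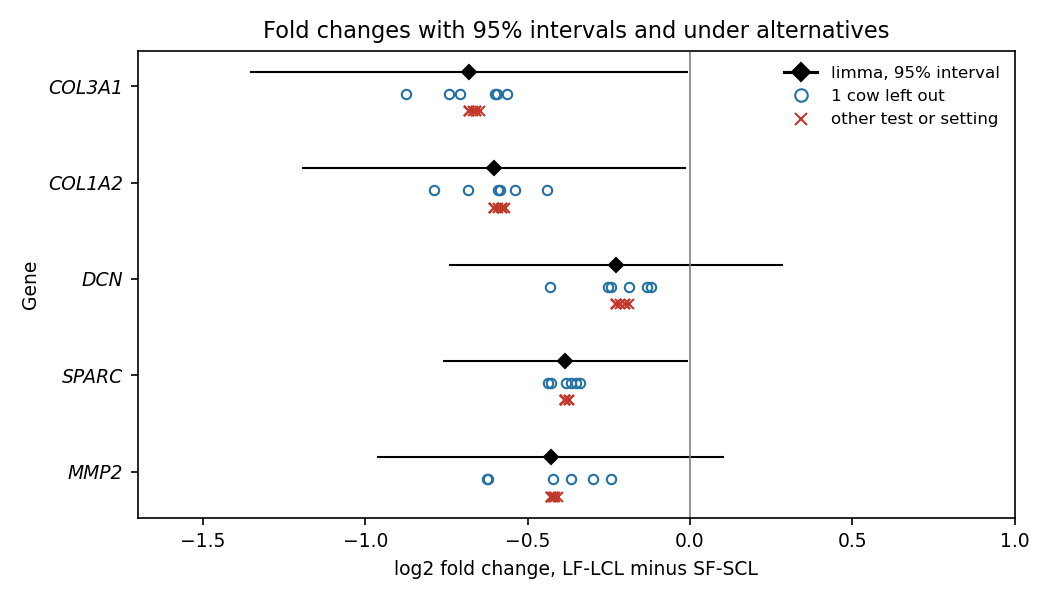
Log2 fold change of each gene (LF-LCL minus SF-SCL). Black diamonds and lines give the limma value with its 95% interval, blue circles the 6 fits that leave out 1 cow, and red crosses the 7 other tests and settings. Every value lies below 0, and the intervals of DCN and MMP2 extend above 0.

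Set against the whole table, the 5 genes lay on the lower side for LF-LCL, as did 44 of the 90 genes at least as abundant as MMP2, the 5 included. Their median log2 fold change was -0.43 (range -0.68 to -0.23), and that of all 12535 tested genes was -0.01. The groups did not overlap in the lower direction for 3 of the 5, against 11% of all tested genes and 22.8% in either direction. Abundant genes have smaller counting error, so the 90 genes with a mean at least that of MMP2 give a closer reference. Of these 90, which include the 5, 48.9% had lower fitted values in LF-LCL, 26.7% were lower in LF-LCL without overlap and 20% were lower at an unadjusted p under 0.05. Limma and edgeR called 0 of the 90 as lower, and DESeq2 called 12 (13.3%). The median log2 fold change of the 90 was 0.05. Ordered from the most negative log2 fold change, COL3A1 ranked 3 of the 90, COL1A2 ranked 8, MMP2 15, SPARC 18 and DCN 34.

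**Figure D3:**
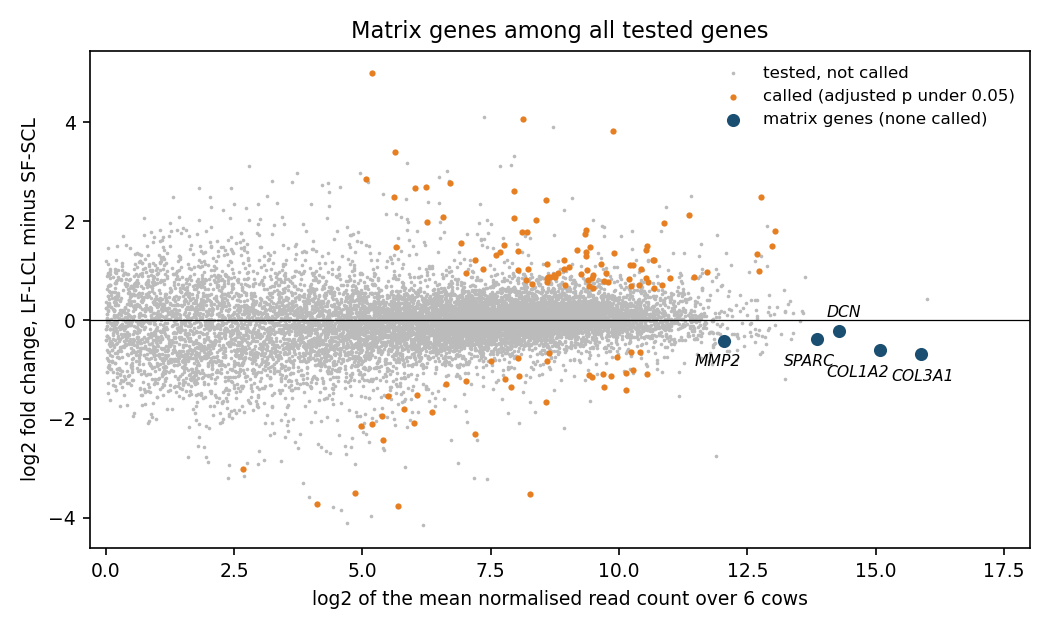
Log2 fold change (LF-LCL minus SF-SCL) of the 12535 tested genes against the log2 of their mean normalised read count. Grey points were not called, orange points were called, and the 5 matrix genes are in dark blue at the abundant end, with log2 fold changes from -0.68 to -0.23.

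The 2 collagen genes had nearly the same profile over the cows, and the profiles of the other members lay further off. Likeness was measured as the root mean square difference between log2(value + 1) profiles over the 6 libraries, each centred on its own mean, among genes with a mean of at least 50. COL1A2 and COL3A1 differed by 0.0844 on this measure. Among 7921 other genes COL1A2 ranked 2 in nearness to COL3A1, and COL3A1 ranked 3 in nearness to COL1A2. SPARC ranked 185 and DCN 399 in nearness to COL3A1, at 0.215 and 0.259, and MMP2 ranked 380, at 0.256. The measure grows with unequal size of the swings between cows as well as with unlike order. SPARC swung less, with a root mean square of its own profile of 0.206 against 0.403 for COL3A1. Its order of cows differed from that of COL3A1 only in SF-SCL replicates 2 and 3. Seen from the other gene of each pair, COL3A1 ranked 1713 in nearness to SPARC, 2250 to DCN and 458 to MMP2. These ranks describe 6 libraries that share their size factors and carry no test.

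The gene nearest to COL3A1 was ENSBTAG00000010465, at a difference of 0.0458, whose means were 68.0 ± 17.0 (SD, n = 3) for LF-LCL and 105.2 ± 6.96 (SD, n = 3) for SF-SCL. The gene nearest to DCN was ENSBTAG00000005296, at 0.0519, with 5932 ± 1363 (SD, n = 3) and 7095 ± 251 (SD, n = 3). Neither was called (limma, adjusted p = 0.196 and 0.475), and their names were not analysed here.

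**Figure D4:**
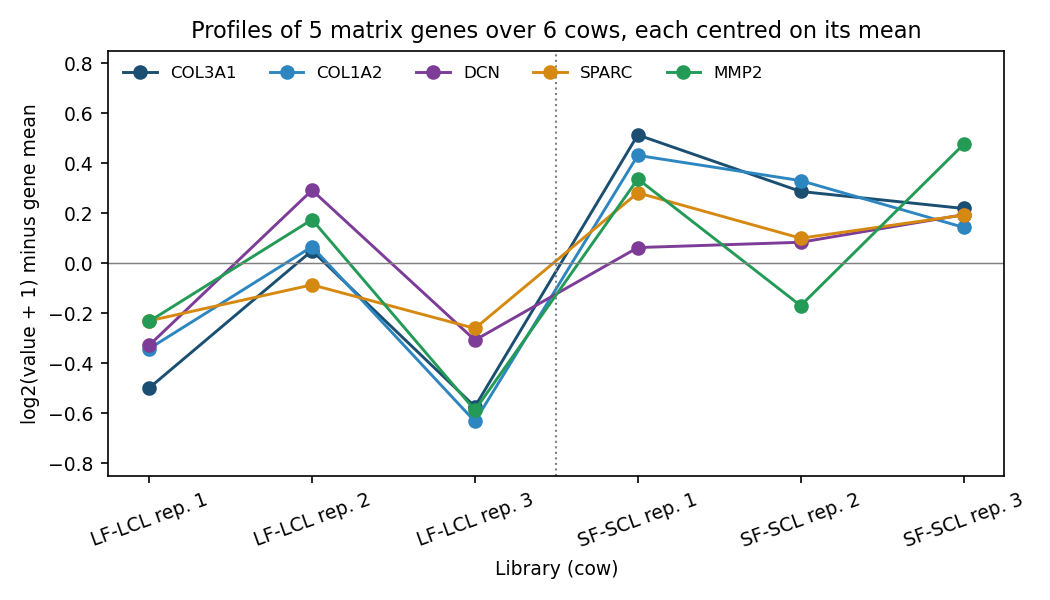
Log2(value + 1) of 5 matrix genes in each of the 6 cows, centred on the gene's mean over the cows. Lines only join the points of a gene, since cows have no order. COL3A1 and COL1A2 nearly coincide, LF-LCL replicate 2 is the highest LF-LCL cow for all 5 genes, and SF-SCL replicate 2 is below the gene mean for MMP2 alone.

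Single cows stood out in different ways for different genes. LF-LCL replicate 2 had the highest LF-LCL value of all 5 genes. LF-LCL replicate 3 had the lowest of 4, the exception being DCN, which was lowest in replicate 1. In SF-SCL, replicate 1 was highest for COL1A2, COL3A1 and SPARC, whereas replicate 3 was highest for DCN and MMP2 and lowest for both collagen genes. Leaving out LF-LCL replicate 2 must widen the difference for all 5 genes, so that fit lends them no weight. With LF-LCL replicate 2 left out, all 5 genes were lower at an unadjusted limma p under 0.05, and 0 were called. The share of all tested genes in that fit was 7.47%, but those genes need not be highest in that cow. Of the 5 genes, 0 had an unadjusted limma p under 0.05 without LF-LCL replicate 1, LF-LCL replicate 3, SF-SCL replicate 1 or SF-SCL replicate 3. In those fits 1442 to 2321 genes of the whole table had such a p, in either direction. Only 1 of the 5, MMP2, had it without SF-SCL replicate 2, where 1580 of 12500 tested genes did in either direction. That cow was the lowest SF-SCL cow for MMP2, so leaving it out must widen the difference and lends MMP2 no weight.

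Ratios between the genes within a library do not depend on the size factors. DCN relative to COL3A1 was 0.385, 0.404 and 0.411 in LF-LCL replicates 1 to 3 and 0.250, 0.297 and 0.336 in SF-SCL replicates 1 to 3. Every LF-LCL cow had more decorin reads per type III collagen read than any SF-SCL cow, with means of 0.400 ± 0.0136 (SD, n = 3) and 0.294 ± 0.0429 (SD, n = 3). This was the only 1 of the 10 pairs of genes whose ratio did not overlap between the groups. The exact permutation test gave p = 0.1, two-sided, the smallest that 3 against 3 allows, and the adjusted value over the 10 ratios was 0.5.

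The ratios of the other 3 genes to COL3A1 overlapped between the groups. COL1A2 relative to COL3A1 was 0.601 ± 0.0462 (SD, n = 3) for LF-LCL and 0.570 ± 0.0282 (SD, n = 3) for SF-SCL, with overlapping cows (exact permutation p = 0.5, adjusted 0.7). MMP2 relative to COL3A1 was 0.0771 ± 0.00749 (SD, n = 3) for LF-LCL and 0.0660 ± 0.0167 (SD, n = 3) for SF-SCL cows (exact permutation p = 0.3, adjusted 0.5). SPARC relative to COL3A1 was 0.284 ± 0.0463 (SD, n = 3) and 0.230 ± 0.0174 (SD, n = 3), and here LF-LCL replicate 2, at 0.231, lay within the SF-SCL range of 0.217 to 0.250 (exact permutation p = 0.2, adjusted 0.5).

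**Figure D5:**
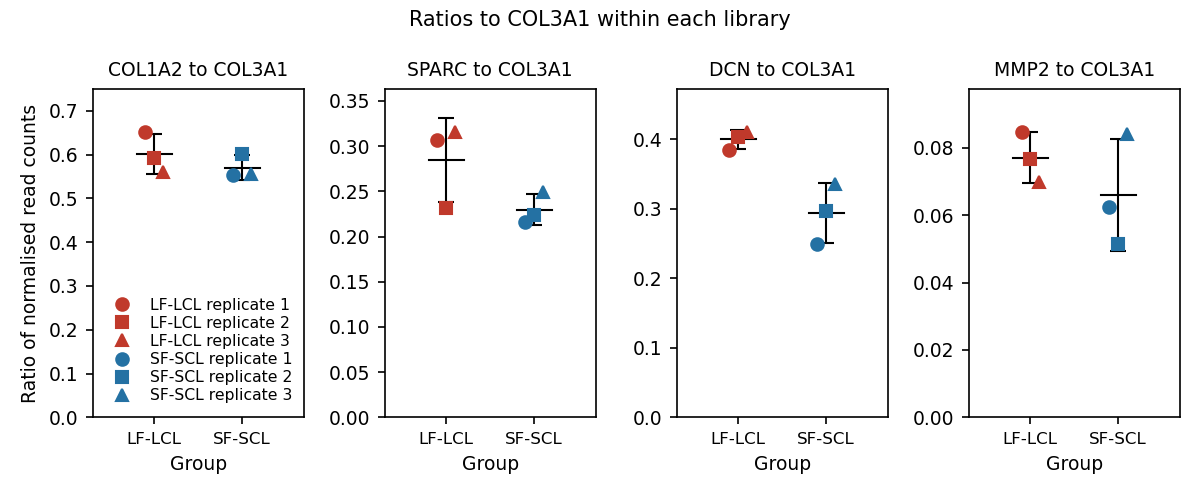
Ratio of the normalised read counts of COL1A2, SPARC, DCN and MMP2 to that of COL3A1 in the same library, 1 symbol per cow, with black bars for the group mean ± SD (n = 3). Of these 4 ratios, DCN to COL3A1 alone has groups that do not overlap, at 0.385 to 0.411 in LF-LCL and 0.250 to 0.336 in SF-SCL.

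By symbol, the RefSeq gene table of a Bos indicus assembly (NIAB-ARS_B.indTharparkar_mat_pri_1.0) lists each of the 6 genes once. It holds none of the Ensembl cattle identifiers under which the reads were counted. COL3A1 lies there beside COL5A2, which encodes a type V collagen chain that joins the same fibrils, and DCN lies beside LUM, the gene of the related proteoglycan lumican. None of the 6 overlaps another protein-coding gene in that table. The values of these neighbours were not analysed here.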

How the data were processed

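The authors deposited 1 table of normalised signal per Ensembl cattle gene, with 1 column per cow. Bowtie2 (2.1.0), HTSeq (0.5.4p2) and DESeq (1.12.1) are among the tools listed without roles, per the submitters' processing notes, with genome build, annotation release and strand setting not given in the sources used here. In each deposited column 100% of values above 0 were whole multiples of the smallest, to within 0.01 reads, so whole reads were recovered (total count 2896663 to 7811332 per library). Limits on counts cover counting error alone, because reads lacking molecular identifiers need not be independent molecules.

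Genes with a mean of at least 1 were tested with limma 3.58.1 (R 4.3.3, mean-variance trend) on log2(value + 1), group as the only term, with Benjamini-Hochberg adjustment. Alternatives were edgeR 4.0.16 and DESeq2 1.42.0 on recovered reads, TMM rescaling, pseudocounts of 0.1 and 5, no filter, and leaving out each cow. The tests were tested on simulated data. Those outcomes are not reported here and bear out no statement about fold changes as small as those of these genes. The labels describe separate cows. Replicates are numbered by accession and are not pairs, and the labels name no batch. The named genes are the 6 members, chosen with earlier results of these data known, and at most 2 identifiers of nearest pattern. Planned lists of matrix, protease and cell type genes and promoter motifs were not used, since no identifier matched the gene table.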

Additional observations from a re-analysis of the deposited data

How the results depend on the processing

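All 5 measured genes kept lower values in LF-LCL under the 7 other tests and settings and the 6 fits without 1 cow. The 7 use the same 6 libraries. For genes this abundant the pseudocounts and the filter leave the fold change nearly unmoved (COL1A2 -0.604 in each). A kept direction under those settings was therefore fixed in advance. For COL1A2, COL3A1 and SPARC, whose groups do not overlap, no fit without 1 cow could reverse the direction either. The threshold was passed only with DESeq2, by COL3A1 (log2 fold change -0.66, adjusted p = 0.0215) and SPARC (-0.38, adjusted p = 0.0261); the cause was not tested. The count of called genes over the whole table was 121 with limma, 106 with edgeR under TMM scaling, 83 with edgeR under RLE scaling and 689 with DESeq2. With the other limma settings on all cows it ran from 81 to 144. It was 0 to 370 without 1 cow: 1, 0 and 12 without LF-LCL replicates 1 to 3, and 2, 0 and 370 without SF-SCL replicates 1 to 3. In the fits with 0 calls, 1865 and 1580 genes had an unadjusted limma p under 0.05, and edgeR was not run on them. COL1A2, COL3A1 and SPARC had an unadjusted limma p of 0.0453, 0.0474 and 0.0456, and over 0.05 with a pseudocount of 5 (0.0831, 0.106 and 0.0761) or no filter (0.0615, 0.0711 and 0.0668). It stayed under 0.05 for all 3 with a pseudocount of 0.1 and with values rescaled by TMM. The ratios to COL3A1 were chosen after the data were seen. Ratios to COL1A1 and its fold change were not computed, since it is listed at 0. No paired analysis was possible because the labels give no shared replicate numbers.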
